A study of Rattus norvegicus with 6 samples.

Results

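The miR-23/27/24 clusters are a pair of related loci, each of which gives a miR-23, a miR-27 and a miR-24 from one stretch of primary transcript. The 5 rat miRNAs described here were chosen by name from the 758 on the array: rno-miR-23a-3p and rno-miR-27a-3p of the a cluster, rno-miR-23b-3p and rno-miR-27b-3p of the b cluster, and rno-miR-24-3p, which both clusters encode. The species prefix is left out below. Total RNA of male Sprague–Dawley rats, which weighed 200 ± 20 g at purchase, was hybridized to 6 Agilent Rat miRNA arrays, 1 rat per array. In the model group (3 rats), the left anterior descending coronary artery (LAD) was tied off, and tissue of the infarct marginal zone was taken 4 weeks later. In the control group (3 rats), the thread was passed without ligation, and myocardium was taken at the same time. The site of sampling and the infarct differ together between the groups and cannot be told apart.

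MiRNAs repress messenger RNAs that pair with their seed, the stretch of bases near the 5′ end. The miR-23, miR-27 and miR-24 families are known in the heart for roles in endothelial growth, hypertrophy and the survival of cardiomyocytes. As background, miR-23a-3p is known to repress the muscle ubiquitin ligase Trim63 (MuRF1), miR-27b-3p the lipid regulator Pparg, and miR-24-3p the cell death protein Bcl2l11 (Bim). The loci are placed here by the RefSeq annotation of the rat assembly GRCr8. The a cluster holds the hairpins Mir23a, Mir27a and Mir24-2 within 389 bases of chromosome 19, on the minus strand, between the genes Zswim4 and LOC102548759. The b cluster holds Mir23b, Mir27b and Mir24-1 within 814 bases of chromosome 17, on the minus strand, inside the gene Aopep, and the annotated end of Fancc reaches into Mir24-1.

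The mature sequences, printed because the a and b versions are almost identical, are given from 5′ to 3′ with the seed (bases 2 to 8) in capitals. All 5 were found in RefSeq.
miR-23a-3p (chr19:40859778-40859798, minus strand): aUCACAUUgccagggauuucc
miR-23b-3p (chr17:1819405-1819425, minus strand): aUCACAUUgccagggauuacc
miR-27a-3p (chr19:40859614-40859634, minus strand): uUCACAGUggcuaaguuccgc
miR-27b-3p (chr17:1819163-1819183, minus strand): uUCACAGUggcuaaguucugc
miR-24-3p (chr19:40859481-40859502 and chr17:1818672-1818693, minus strand): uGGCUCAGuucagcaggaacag
Counted from 1 at the 5′ end, miR-23b-3p differs from miR-23a-3p by the single change U19A, and miR-27b-3p differs from miR-27a-3p by C19U. Both changes lie outside the seed, so the a and b version of each family share it. No other miRNA on the array for which RefSeq gave a sequence had one of these 3 seeds. Because of the 1-base difference, a probe for one version may also bind the other, and how far this happened was not tested. MiR-24-3p is identical at both loci, so its signal cannot be assigned to a cluster.

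The 6 arrays shared 1 slide and were scanned together, and 206 to 222 miRNAs were detected per array. The signal of a miRNA is the summed brightness of its probes that exceeded 3 times their error, in the units of the scanner. Each of the 5 miRNAs had 2 probes, and all 10 probes were detected on all 6 arrays. For group comparisons, signals were expressed relative to the 75th percentile of their own array, taken over the 198 miRNAs that every array detected, and log2 was taken (scaled signal). Different miRNAs have different probes, so levels were compared between arrays and not between miRNAs.

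The b cluster miRNAs were higher in the model group than in the control group. For miR-27b-3p, this did not pass the test once any single array was left out. MiR-23b-3p rose 1.42-fold and miR-27b-3p rose 1.29-fold, while miR-23a-3p, miR-27a-3p and miR-24-3p had folds of 1.14, 1.16 and 1.14 that did not pass the test. Of the 5 miRNAs, 2 were called higher and 0 lower (limma over the 214 miRNAs that all arrays of either group detected, Benjamini-Hochberg adjusted p under 0.05). Among all 214 miRNAs, 10.3% were called higher and 12.6% lower. At an unadjusted p under 0.05, 4 of the 5 were higher and 0 lower, against 14.0% and 23.8% of the 214. The methods' t-test after the same adjustment called 2 of the 5 higher, miR-23a-3p and miR-23b-3p, and 0 lower, against 7.01% and 5.14% of the 214. The median log2 change of the 5 was 0.22, against -0.14 over the 214. None of the 5 reached the 2-fold threshold of the study. Of the 214, 5.14% were over 2-fold higher with an adjusted p under 0.05 (limma).

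**Figure D1:**
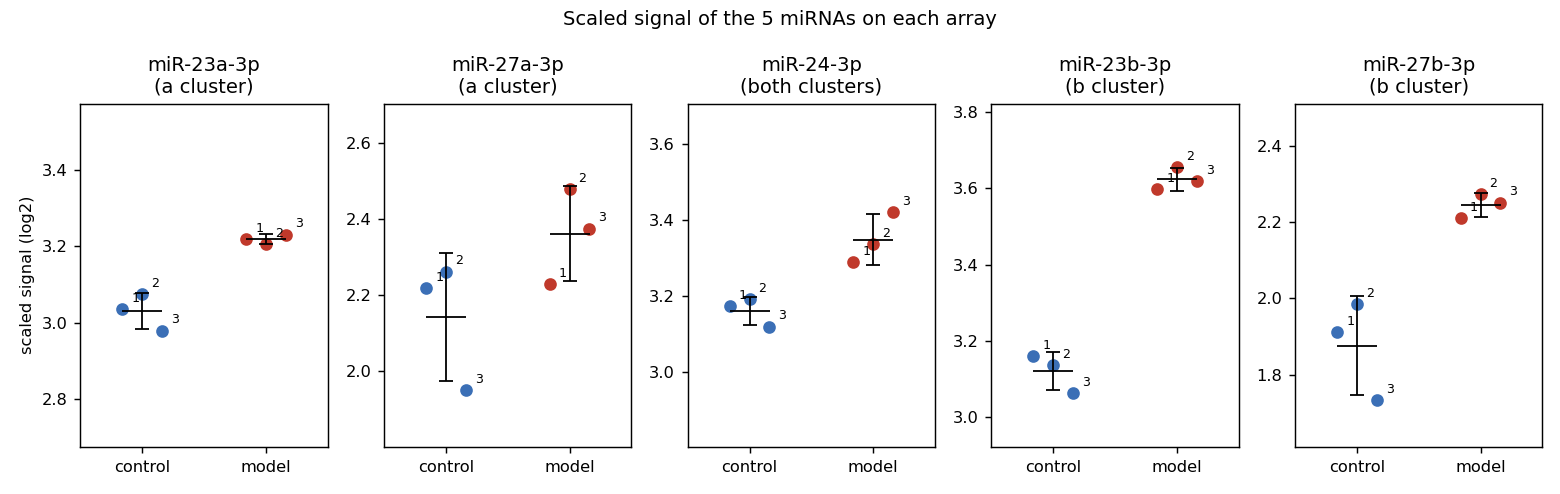
Scaled signal (log2) of the 5 miRNAs on each array; points are arrays numbered by replicate (3 control, 3 model), with mean and SD in black, and every panel spans the same log2 range. The groups are apart for 4 miRNAs and overlap for miR-27a-3p, and the gap is widest for miR-23b-3p (means 3.12 and 3.62).

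MiR-23b-3p had signals of 1296, 1664 and 1217 on control arrays 1 to 3 and of 2461, 2432 and 2066 on model arrays 1 to 3. All model arrays lay above all control arrays, before scaling as well as after it. The scaled signal averaged 3.12 ± 0.050 on control arrays and 3.62 ± 0.030 on model arrays (SD, n = 3 each). The log2 change was 0.50 (standard error 0.069, 95% interval 0.33 to 0.67, adjusted p = 0.00626 in limma), the 24th highest of the 214. Without control array 1 it was 0.50 with an adjusted p of 0.0720, and with quantile normalization it was 0.32 with an adjusted p of 0.0680 (limma).

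MiR-27b-3p, the partner of miR-23b-3p at the same locus, had signals of 546, 748 and 484 on the control arrays and of 941, 932 and 801 on the model arrays. The groups again did not overlap before or after scaling. The scaled signal averaged 1.88 ± 0.13 on control arrays and 2.25 ± 0.032 on model arrays (SD, n = 3 each), so the control arrays were the more spread, with array 3 the lowest. The log2 change was 0.37 (standard error 0.090, 95% interval 0.15 to 0.59, adjusted p = 0.0345 in limma). This call was lost whichever of the 6 arrays was left out, with adjusted p from 0.0506 without control array 2 to 0.187 without control array 1 (limma). The methods' t-test gave it an adjusted p of 0.0534.

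MiR-23a-3p had signals of 1190, 1592 and 1148 on the control arrays and of 1893, 1779 and 1580 on the model arrays. Before scaling, control array 2 lay just above model array 3. After scaling, the model arrays lay above the control arrays, at 3.22 ± 0.013 against 3.03 ± 0.048 (SD, n = 3 each). The log2 change was 0.19 (standard error 0.067, 95% interval 0.023 to 0.35) with an adjusted p of 0.105 in limma, and the methods' t-test, which does not share the spread over miRNAs, gave an adjusted p of 0.0303.

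MiR-27a-3p had signals of 675, 907 and 563 on the control arrays and of 953, 1075 and 873 on the model arrays. This is the only one of the 5 whose groups overlapped after scaling: model array 1, at 2.23, lay below control array 2, at 2.26. The group means were 2.14 ± 0.17 and 2.36 ± 0.12 (SD, n = 3 each), the widest spread among the 5. The log2 change was 0.22 (standard error 0.12, 95% interval -0.074 to 0.51, adjusted p = 0.217 in limma). It was 0.11 without control array 3, the lowest of the arrays. Model arrays 2 and 3 were alone in their row of the slide. With the slide row as a block, the log2 change was 0.086, which rests on model array 1 against the control arrays.

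MiR-24-3p had signals of 1308, 1727 and 1265 on the control arrays and of 1985, 1947 and 1800 on the model arrays. The groups did not overlap, with scaled signals of 3.16 ± 0.037 and 3.35 ± 0.066 (SD, n = 3 each). The log2 change was 0.19 (standard error 0.073, 95% interval 0.0072 to 0.37, adjusted p = 0.122 in limma). In all, 4 of the 5 miRNAs had model arrays wholly above the control arrays, against 16.4% of the 214. For a single miRNA, the exact permutation test cannot go below p = 0.10 with 3 arrays against 3.

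**Figure D2:**
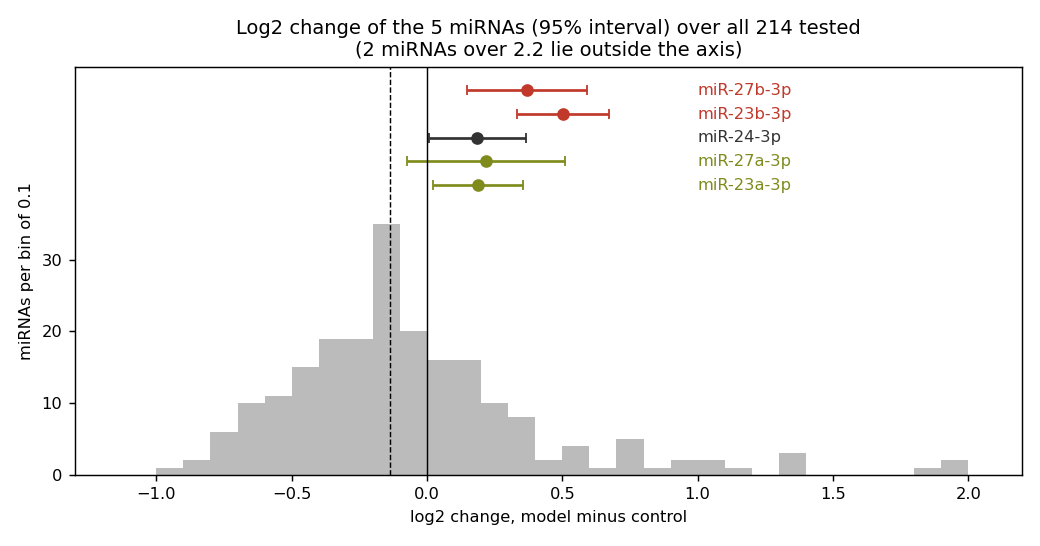
Log2 change (model minus control) of the 5 miRNAs as points with 95% intervals from limma, above the histogram of the change of all 214 tested miRNAs (grey, miRNAs per bin of 0.1; dashed line, their median). The points of all 5 lie to the right of the median of -0.14, and those of miR-23b-3p and miR-27b-3p lie farthest right.

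The changes depend on where zero is set. After the scaling used here, the 198 miRNAs that every array detected had a median log2 change of -0.15, not 0. Relative to that median, the changes were 0.65 for miR-23b-3p, 0.52 for miR-27b-3p, 0.37 for miR-27a-3p, 0.34 for miR-23a-3p and 0.33 for miR-24-3p. When the arrays were centred on the median deviation, 4 of the 5 were called higher, all but miR-27a-3p. With the 75th percentile of all 758 miRNAs, miR-23b-3p alone was called. The balance of calls over all miRNAs moved with it: 22 were higher and 27 lower here, 30 and 16 after centring, 19 and 47 when that percentile was taken over the whole array, and 35 and 1 with the totals as deposited, for which the median log2 change was 0.15. The log2 changes of all 5 were above 0 in each of the 21 alternatives run. Those that altered only the floor, the detection filter, the test or the replicate block could not move the log2 change. They therefore add nothing on its sign. In the other alternatives, some values were close to 0. MiR-24-3p had 0.0080 with quantile normalization (adjusted p = 0.972, limma) and 0.096 in the authors' normalized values. With the percentile over the whole array, miR-23a-3p had 0.063, miR-24-3p 0.060 and miR-27a-3p 0.092.

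The difference between the clusters was taken within each array, where scaling cancels, as log2 of the a version minus log2 of the b version. For miR-23a-3p minus miR-23b-3p, the control arrays were at -0.12, -0.064 and -0.085 and the model arrays at -0.38, -0.45 and -0.39. The groups lay well apart. The group means were -0.091 ± 0.030 and -0.41 ± 0.040 (SD, n = 3 each), a model minus control value of -0.32. In other words, the ratio of the b signal to the a signal was 1.24-fold higher in the model group.

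For miR-27a-3p minus miR-27b-3p, the control arrays were at 0.31, 0.28 and 0.22 and the model arrays at 0.019, 0.21 and 0.12. The groups did not overlap, but control array 3 and model array 2 lay close together. The group means were 0.27 ± 0.045 and 0.12 ± 0.093 (SD, n = 3 each), a model minus control value of -0.15. Averaged over both families, the a members minus the b members stood at 0.088 ± 0.020 on control arrays and at -0.14 ± 0.030 on model arrays, a model minus control value of -0.23. Each of these 3 differences had p = 0.10 in a two-sided exact permutation test, the smallest p that 3 arrays against 3 allow, and an adjusted p of 0.10 over the 3 by exact permutation.

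**Figure D3:**
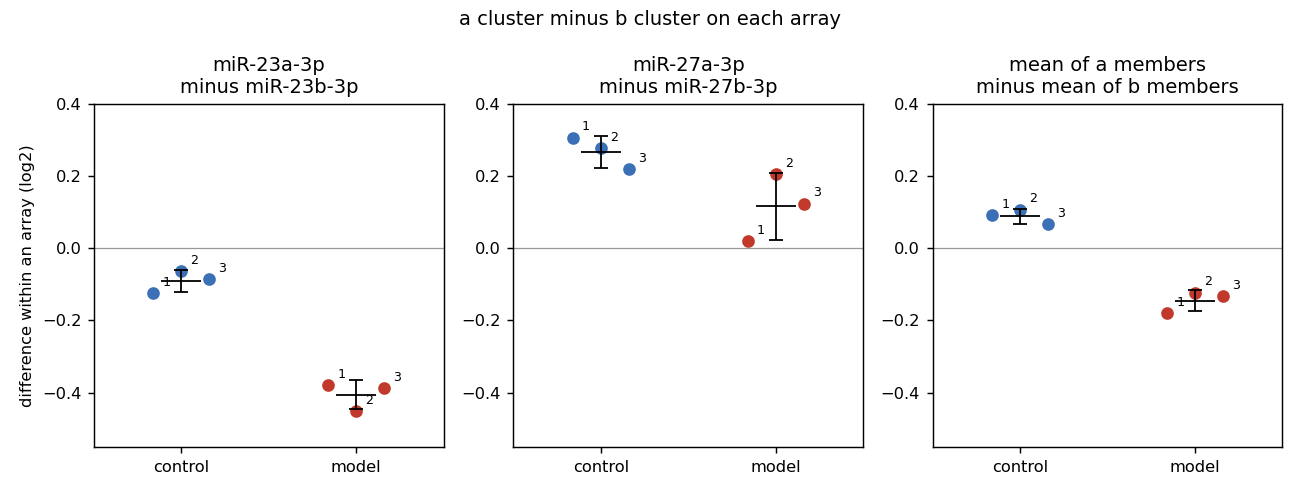
Within-array log2 difference of the a version minus the b version for miR-23, miR-27 and the mean of both; points are arrays numbered by replicate, with mean and SD in black. All model arrays lie below all control arrays in each panel, widely for miR-23 (-0.09 against -0.41) and narrowly for miR-27 (0.27 against 0.12).

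The difference between the clusters depended on the normalization. With quantile normalization, the model minus control value was -0.084 for the miR-23 pair and 0.056, in the opposite direction, for the miR-27 pair. In the authors' normalized values it was -0.15 for the miR-23 pair and -0.0013 for the miR-27 pair. The mean over both families was -0.014 with quantile normalization (exact permutation p = 0.90) and -0.075 in the authors' values (exact permutation p = 0.20). When single arrays were left out, the value stayed between -0.33 and -0.29 for the miR-23 pair and between -0.20 and -0.10 for the miR-27 pair. Model array 1 was the only model array in the row of the slide that held the control arrays. Within that row alone, the value was -0.29 for the miR-23 pair and -0.25 for the miR-27 pair, with 1 model array and no test. The direction was fixed, since all model arrays lay below all control arrays in both differences.

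**Figure D4:**
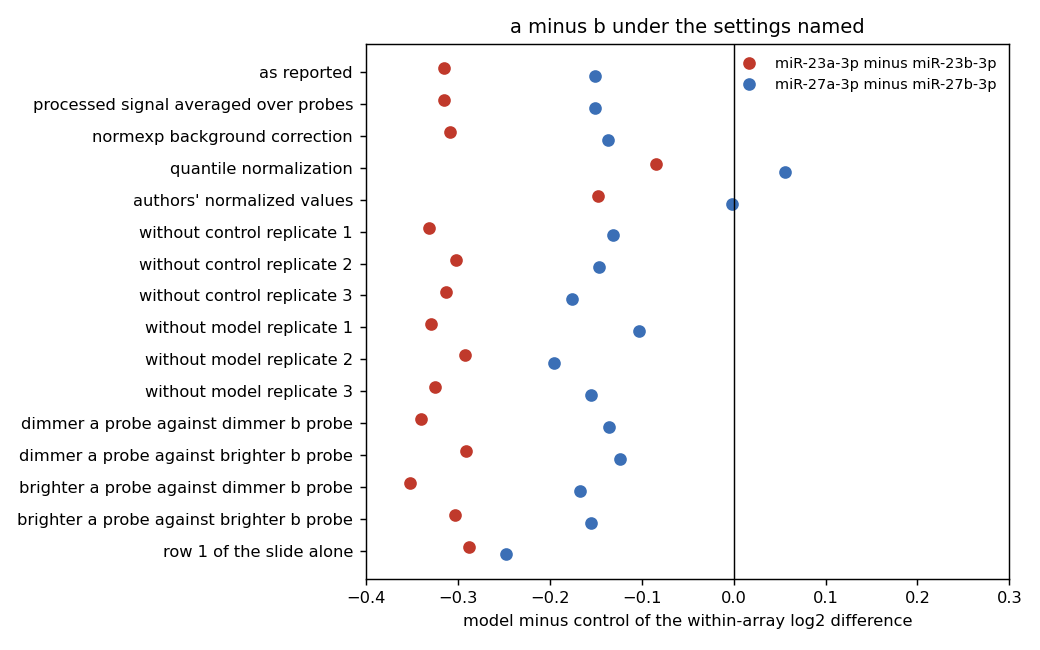
Model minus control of the within-array difference (log2, x axis) for the miR-23 pair (red) and the miR-27 pair (blue) under the settings named on the y axis; each point is 1 value. The miR-23 pair stays below 0 throughout, and the miR-27 pair crosses to 0.056 with quantile normalization and sits at -0.0013 in the authors' values.

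The separate probes of each miRNA moved alike. The brighter and the dimmer probe of miR-23b-3p had log2 changes of 0.49 and 0.54, and those of miR-27b-3p had 0.37 and 0.38. For the a cluster, the values were 0.19 and 0.20 for miR-23a-3p and 0.21 and 0.24 for miR-27a-3p. The probes of miR-24-3p had 0.19 and 0.17. When each probe of an a version was set against each probe of its b version, the model minus control value ran from -0.35 to -0.29 in the 4 combinations for miR-23 and from -0.17 to -0.12 in the 4 combinations for miR-27, and the groups did not overlap in any of the 8. Each probe was printed 8 times, and the coefficient of variation over its spots on an array was 0.17% to 5.73%, with a median of 2.15%.

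**Figure D5:**
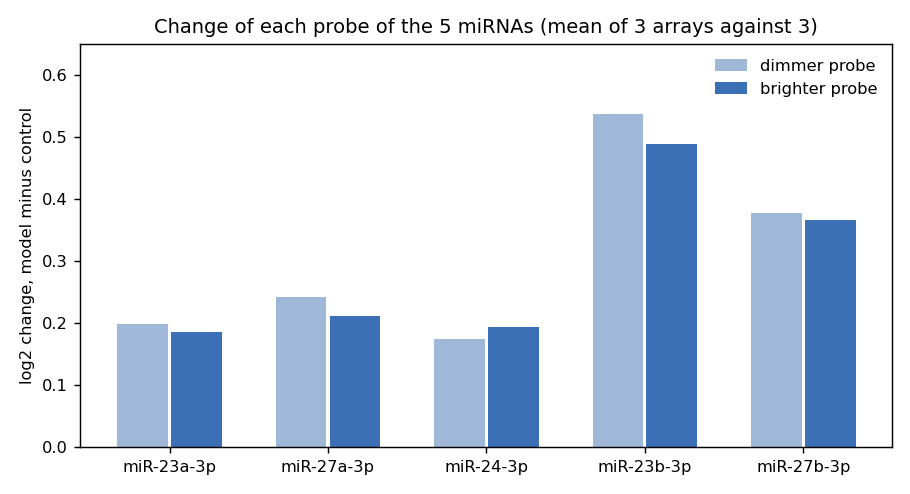
Log2 change (model minus control, bars from 0) of the dimmer and the brighter probe of each miRNA, as means of 3 arrays against 3 after scaling. Both probes of miR-23b-3p (0.54 and 0.49) and of miR-27b-3p (0.38 and 0.37) stand above all 6 probes of the other 3 miRNAs.

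Within the clusters, the miRNAs of a locus were also set against each other within each array, without a test. MiR-23a-3p minus miR-27a-3p was 0.89 ± 0.12 on control arrays and 0.86 ± 0.13 on model arrays (SD, n = 3 each), with groups that overlapped. MiR-23b-3p minus miR-27b-3p was 1.24 ± 0.089 on control arrays and 1.38 ± 0.011 on model arrays (SD, n = 3 each). The groups did not overlap, but control array 3, at 1.33, lay close to model array 3, at 1.37. With quantile normalization, miR-23b-3p and miR-27b-3p had log2 changes of 0.32 and 0.27. MiR-24-3p minus the mean of the a members was 0.57 ± 0.071 and 0.56 ± 0.062, while miR-24-3p minus the mean of the b members was 0.66 ± 0.051 and 0.41 ± 0.062 (SD, n = 3 each). With this scaling, the groups overlapped in its difference from the a cluster and were apart in its difference from the b cluster. This contrast depended on the normalization. The model minus control values of these differences were -0.017 (a) and -0.25 (b) here, -0.27 and -0.29 with quantile normalization and -0.20 and -0.27 in the authors' normalized values, and in the latter pair of settings the groups were apart in both. Its profile over the 6 arrays, centred on its mean, had a root mean square difference of 0.035 log2 units from miR-23a-3p, 0.10 from miR-27a-3p, 0.11 from miR-27b-3p and 0.16 from miR-23b-3p.

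The opposite arms of the precursors can mark a locus where their sequences differ. Of the 6 on the array, 5 were not detected on any array, namely miR-23a-5p, miR-23b-5p, miR-27a-5p, miR-27b-5p and miR-24-1-5p. MiR-24-2-5p, from the a cluster, was detected on all 6. It is shown beside miR-24-1-5p of the b cluster, with the seed in capitals, because these are the arms by which the miR-24 precursors can be told apart.
miR-24-2-5p (chr19:40859517-40859538, minus strand): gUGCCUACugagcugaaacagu
miR-24-1-5p (chr17:1818710-1818731, minus strand): gUGCCUACugagcugauaucag
They share the seed and differ at 5 positions near the 3′ end. MiR-24-2-5p had signals of 5.64, 7.21 and 3.78 on the control arrays and of 8.31, 7.07 and 6.93 on the model arrays. The groups overlapped, as, before scaling, model arrays 2 and 3 lay below control array 2. The log2 change was 0.23 (standard error 0.18, 95% interval -0.20 to 0.66, adjusted p = 0.354 in limma). No arm of the b cluster other than the 3p miRNAs gave a value to set against it.

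Among the other 193 miRNAs detected on all arrays, the profiles most like those of the clusters were named by the root mean square difference over the 6 arrays, each profile centred on its own mean. For the mean of the a members these were miR-99a-5p (0.027), miR-100-5p (0.042) and miR-652-3p (0.059), against a median of 0.28 over the 193. For the mean of the b members these were let-7e-5p (0.089), let-7c-5p (0.099) and miR-3473 (0.10), against a median of 0.36. For miR-24-3p they were miR-652-3p (0.026), miR-100-5p (0.061) and miR-99a-5p (0.070), the same 3 as for the a cluster in another order. All these profiles were compared with the scaling used here only. Picked for a like profile, the miRNAs named were bound to have changes near those of the clusters. The log2 changes were 0.17 for miR-99a-5p, 0.19 for miR-100-5p and 0.16 for miR-652-3p, none of which passed the test. Of the profiles like the b cluster, let-7e-5p rose by 0.32 (adjusted p = 0.0281) and miR-3473 by 0.33 (adjusted p = 0.0441), and let-7c-5p had 0.33 (adjusted p = 0.0578, limma).

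Markers of the cell types in the tissue also differed between the groups. In bulk tissue, fewer cells of a type and less RNA per cell cannot be told apart. For the counts of markers called, the shares over all 214 miRNAs were 12.6% lower and 10.3% higher. Of the 6 cardiomyocyte miRNAs, 3 were called lower (miR-1-3p, miR-133a-3p and miR-133b-3p, with log2 changes of -0.76, -0.68 and -0.72). MiR-208a-3p and miR-499-5p had -0.87 and -0.69 and were not called (adjusted p = 0.0988 and 0.0929, limma). The last, miR-208b-3p, was not detected on any array. MiR-1-3p, which marks muscle, had signals from 5117 to 11740 over the 6 arrays. The summed scaled signal of the list was 6.84 to 7.11 on the control arrays and 5.93 to 6.41 on the model arrays (log2). Both endothelial miRNAs, miR-126a-3p and miR-126a-5p, fell, by 0.49 and 0.59 on the log2 scale (adjusted p = 0.0154 and 0.0132, limma), and their sum was 3.03 to 3.20 against 2.58 to 2.74. Of the 5 fibroblast or smooth muscle miRNAs, 3 rose (miR-199a-3p, miR-199a-5p and miR-214-3p, with log2 changes of 1.40, 1.95 and 1.84). The other members, miR-143-3p and miR-145-5p, each had -0.17 and were not called (adjusted p = 0.365 and 0.267, limma). The sum of the 5 was 2.85 to 3.21 against 3.58 to 3.81. Of the 6 leukocyte miRNAs, miR-155-5p rose by 1.07 and miR-150-5p fell by 0.60, and miR-142-5p was not detected on any array. MiR-142-3p, miR-223-3p and miR-146a-5p had -0.073, 0.15 and -0.42 and were not called. The sum was 1.52 to 1.80 against 1.03 to 1.33. Bright members weigh most in it, with signals of 205 to 356 for miR-150-5p and 3.04 to 9.95 for miR-155-5p. Of the 3 red blood cell miRNAs, miR-486 fell by 0.68, and miR-144-3p was not detected on any array. MiR-451-5p had -0.53 and was not called (adjusted p = 0.132, limma). The sum was 0.85 to 1.08 against 0.19 to 0.53. The sums were taken after scaling only, and unscaled sums were not compared. The lower calls among these markers depended on the scaling. None of the 7 was called without scaling or with the totals as deposited (limma, adjusted p 0.265 to 0.591 and 0.0806 to 0.329), and before scaling the groups overlapped for miR-133a-3p and both arms of miR-126a. With quantile normalization, the log2 changes of miR-1-3p and miR-133b-3p were 0. That method gives the same value to a miRNA of equal rank on every array. These values were therefore fixed by the method and do not measure a change. The calls of miR-199a-3p, miR-199a-5p and miR-214-3p held without scaling and with deposited totals, while miR-155-5p turned to -1.92 with the latter (adjusted p = 0.307, limma). Of the 11 markers called, 3 were called without control array 1. Only 2 were called without a detection filter, 3 with the replicate numbers as a block, and 7 with the methods' t-test or the authors' values. All 11 were called with the percentile over the whole array or without model array 3, and 10 with centring. In the authors' values, miR-1-3p and miR-133b-3p had -0.085 and -0.11 (adjusted p = 0.548 and 0.519, limma). The part of these shifts in the changes of the miR-23/27/24 clusters was not tested.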

How the data were processed

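Total RNA of myocardium from 3 model and 3 control rats was measured on 6 arrays. The authors deposited the scanner output of each array, made with Agilent Feature Extraction 10.7.1.1. Its intensity values have the background removed and no scaling between arrays. The authors also deposited a table of normalized log2 values without a named method. The 5 miRNAs, lists and alternatives were chosen with earlier results of these data known. MiRNA signals were summed over probes above 3 times their error, since the deposited totals of 47 to 51 miRNAs per array exceed the sum of their own detected probes. For the 5 miRNAs the sum equals the deposited total (relative tolerance 0.0001). Scaled signals were floored at -6.50 (log2), the highest, over arrays, of the lowest detected level. The groups were tested against each other in R 4.3.3 with limma 3.58.1 and Benjamini-Hochberg adjustment. The fit was checked on simulated data with larger changes than those of the 5 miRNAs. That check does not cover changes as small as theirs. Single values were compared by exact permutation tests in Python 3.11.15 with scipy 1.17.1. The miRNAs named are the cluster members with the other arms of their precursors, those most like each cluster in profile, and the members of the marker lists. The number of arrays limits the precision. With 1 array per rat, p-values measure the spread between these arrays, in which rat and array handling cannot be told apart. The limma p-values also share the spread over miRNAs. The alternatives covered the signal, background correction, scaling, floor, detection filter, test, slide row, pairing, the authors' values and leaving out each array.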

Additional observations from a re-analysis of the deposited data

How the results depend on the processing

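All 10 probes exceeded 3 times their error on every array, and 3 arrays per group limit the precision. Of the 5 miRNAs, 5 were called higher with the totals as deposited, 4 with normexp background correction, 4 with centring on the median deviation, 1 with quantile normalization, 1 with the 75th percentile of all miRNAs, 1 without scaling, 1 without a detection filter, 1 with the slide row as a block and 0 with the replicate block (2 at an unadjusted p under 0.05, limma). Leaving out single arrays gave 0 (control array 1, 2 at an unadjusted p under 0.05) to 1 (each of the others). The call of miR-23b-3p was lost with quantile normalization (log2 change 0.32), the replicate block (0.50, adjusted p = 0.0576 in limma) and without control array 1 (range over the 6 arrays left out 0.46 to 0.50). That of miR-27b-3p was lost with the 75th percentile of all miRNAs (0.24), the methods' t-test, no detection filter and the replicate block (0.37 each), no scaling (0.61) and each array left out (0.28 to 0.41). With the slide row as a block, its log2 change was 0.33. MiR-23a-3p was called with the authors' values (0.32), centring (0.31), the methods' t-test (0.19), normexp (0.23) and the totals as deposited (0.53), miR-24-3p with centring (0.31), normexp (0.23) and the totals as deposited (0.53), and miR-27a-3p with the totals as deposited (0.56). The difference of the miR-27 pair reversed to 0.056 with quantile normalization. The row of the slide alone, chosen after seeing the data, could not change the direction of the 3 cluster differences. Every model array lay below every control array in each of them, so it is no check on the slide position. Over all miRNAs, 22 were higher and 27 lower. The higher count was 35 with the totals as deposited, 6 without a filter, 12 with the replicate block, and 12 to 22 with an array left out (12 without control array 1, 13 without control array 3). The lower count was 47 with the 75th percentile of all miRNAs, 16 with centring, 16 with quantile normalization, 14 with the authors' values, 11 with the methods' t-test, 4 with the replicate block, 3 without a filter, 1 with the totals as deposited, 0 without scaling in limma (4 at an unadjusted p under 0.05), and 2 to 21 with an array left out (2, 10 and 14 without control arrays 1, 2 and 3, and 15 without model array 1). Whether the replicate numbers pair the arrays could not be settled with 3 arrays per group. Deviations of same-numbered arrays correlated at -0.26, 0.032 and 0.24 across miRNAs, and those of differently numbered arrays at -0.30 to 0.22. The cause of these changes was not tested.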
